A study of Danio rerio with 18 samples.

Results

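The genes described here are the solute carriers of zebrafish, written slc, which encode proteins that move ions, metals and small organic molecules across membranes. They were taken as every probe set whose only gene symbol is slc followed by a family number and a letter, with the probe set of the highest mean level standing for its gene. The rule gave 134 genes from 154 probe sets, out of 8793 genes with a single symbol on the array. Of these genes, 24 are slc25 genes, described apart, and 110 belong to other families. The rule also took in slc7a6os and slc4a1ap, which are named after a carrier gene (its opposite strand and an adaptor) and are not named as carriers themselves. Role classes below follow the family number alone and not what each gene is known to carry. They therefore count slc7a6os with the amino acid carriers.

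Solute carriers are grouped by what they carry and by the membrane they sit in. Carriers of the plasma membrane take up amino acids, sugars, metals and phosphate or exchange ions for acid-base and volume control, vesicular carriers load transmitters into synaptic vesicles, and slc25 carriers pass phosphate, nucleotides and metabolites over the inner mitochondrial membrane. In the nervous system, glutamate carriers of glia clear released transmitter and vesicular carriers mark the transmitter a neuron uses. In red cells an anion exchanger carries bicarbonate, and iron carriers supply heme synthesis.

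Zebrafish embryos of 14 to 16 somites, kept at 28 °C, gave cells that were sorted by GFP fluorescence, and RNA was measured on Affymetrix arrays, 3 in each of 6 groups. From a wild-type line carrying a miR-206 reporter came GFP-positive muscle cells and the GFP-negative remainder, called the miR-206 rest here. From a wild-type line carrying a miR-124 reporter came GFP-positive cells of the central nervous system (CNS) and the miR-124 rest. The same fractions, mutant CNS and mutant rest, came from fish mutant for Dicer that carry the miR-124 reporter and are labelled MZ, which is not spelled out. Dicer releases mature microRNAs from their precursors. The sources used here do not give the allele, the promoters of the reporters, the sort gates or the number of embryos pooled. Every mutant array came from the mutant line, so that genotype and line cannot be told apart. The arrays of a group are biological replicates per the labels, a description on which all p-values depend.

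Array medians lay between 30.9 and 44.7 intensity units, and arrays of 1 group correlated at 0.962 to 0.990 against 0.784 to 0.972 between groups. All 11 measured muscle markers were higher in muscle than in the miR-206 rest, with sums of 12490 to 17879 against 456 to 741, and all 12 CNS markers were higher in CNS than in the rest in both miR-124 lines. The rest fractions were not alike. Muscle markers summed to 456 to 741 in the miR-206 rest and to 3866 to 5241 in the miR-124 rest, and CNS markers to 5165 to 6573 and to 2296 to 2793. All 8 red cell markers, all 9 epidermal markers and all 4 myeloid markers were lower in muscle and in wild-type CNS than in their rests. The muscle fraction was also high in presomitic markers, with sums of 4527 to 4944 against 1736 to 2692 in its rest. Of these 6 markers 3 were called higher there and none lower. Of 3 neural crest and pigment markers, 1 was higher and 2 lower in muscle. In bulk RNA, fewer cells of a type and less RNA per cell cannot be told apart.

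Of the 134 carriers, 96 were bright enough to be tested, 77 outside slc25 and 19 within it. A tested gene exceeded the 40th percentile of the array, which was 18.5 to 26.6 intensity units, on 3 or more arrays. The other 38 stayed dim, with no array above 42.5. Changes are differences of log2(intensity + 16) with their standard error (SE), fitted with limma over all 18 arrays. A gene is said to have risen or fallen where the p adjusted over all 9548 features was under 0.05. Adding 16 shrinks the changes of dim genes, and levels of different genes are not set against each other because probes differ in brightness.

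The test of any difference among the 6 groups passed for 74 of 96 carriers (77.1%), and the share over all features was also 77.1%. Muscle was the group with the lowest mean for 31 of these 74 genes and the highest for 14. Mutant CNS was the highest for 20 and the lowest for 16. The same counts were not taken over all features, so these are not read as a trait of the carriers. Muscle arrays also had the lowest medians of all arrays (30.9, 34.9 and 33.8), and the counts were not repeated under other scalings.

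Against the miR-206 rest, 10 carriers were higher and 22 lower in muscle, which is 33.3% of those tested against 36.2% of all features (13.1% higher and 23.1% lower). Against the miR-124 rest, 7 were higher and 20 lower in wild-type CNS, 28.1% against 32.8% (14.5% higher and 18.3% lower). In the mutant line 6 were higher and 5 lower in CNS, 11.5% against 15.5% (6.49% higher and 9.03% lower). The median change of the carriers was -0.14 in muscle and -0.02 in wild-type CNS, against -0.06 and 0.02 over all features. The balance of higher and lower calls depended on the scaling of the arrays, in muscle under centring but little under quantile normalization. Centring each array on its median moved the median of all features to 0.14 in muscle and to 0.17 in CNS, and the carriers called then numbered 18 higher and 14 lower in muscle and 22 higher and 11 lower in CNS. Under quantile normalization CNS had 13 higher and 16 lower. The calls that passed in the same direction under all 3 scalings were 10 of 10 higher and 14 of 22 lower in muscle, and 7 of 7 higher and 11 of 20 lower in CNS.

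Groups of 3 arrays that do not overlap were common over all features and are to be read against that. The GFP-positive and GFP-negative arrays did not overlap for 39 carriers in the miR-206 line (40.6% against 42.4% of all features), 37 in the wild-type miR-124 line (38.5% against 43.1%) and 39 in the mutant line (40.6% against 38.7%). Mutant and wild-type arrays did not overlap for 52 carriers in CNS (54.2% against 56.1%) and 49 in the rest (51% against 46.1%). Muscle and wild-type CNS did not overlap for 47 (49% against 56.7%), and the wild-type rests for 15 (15.6% against 17.7%).

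**Figure D1:**
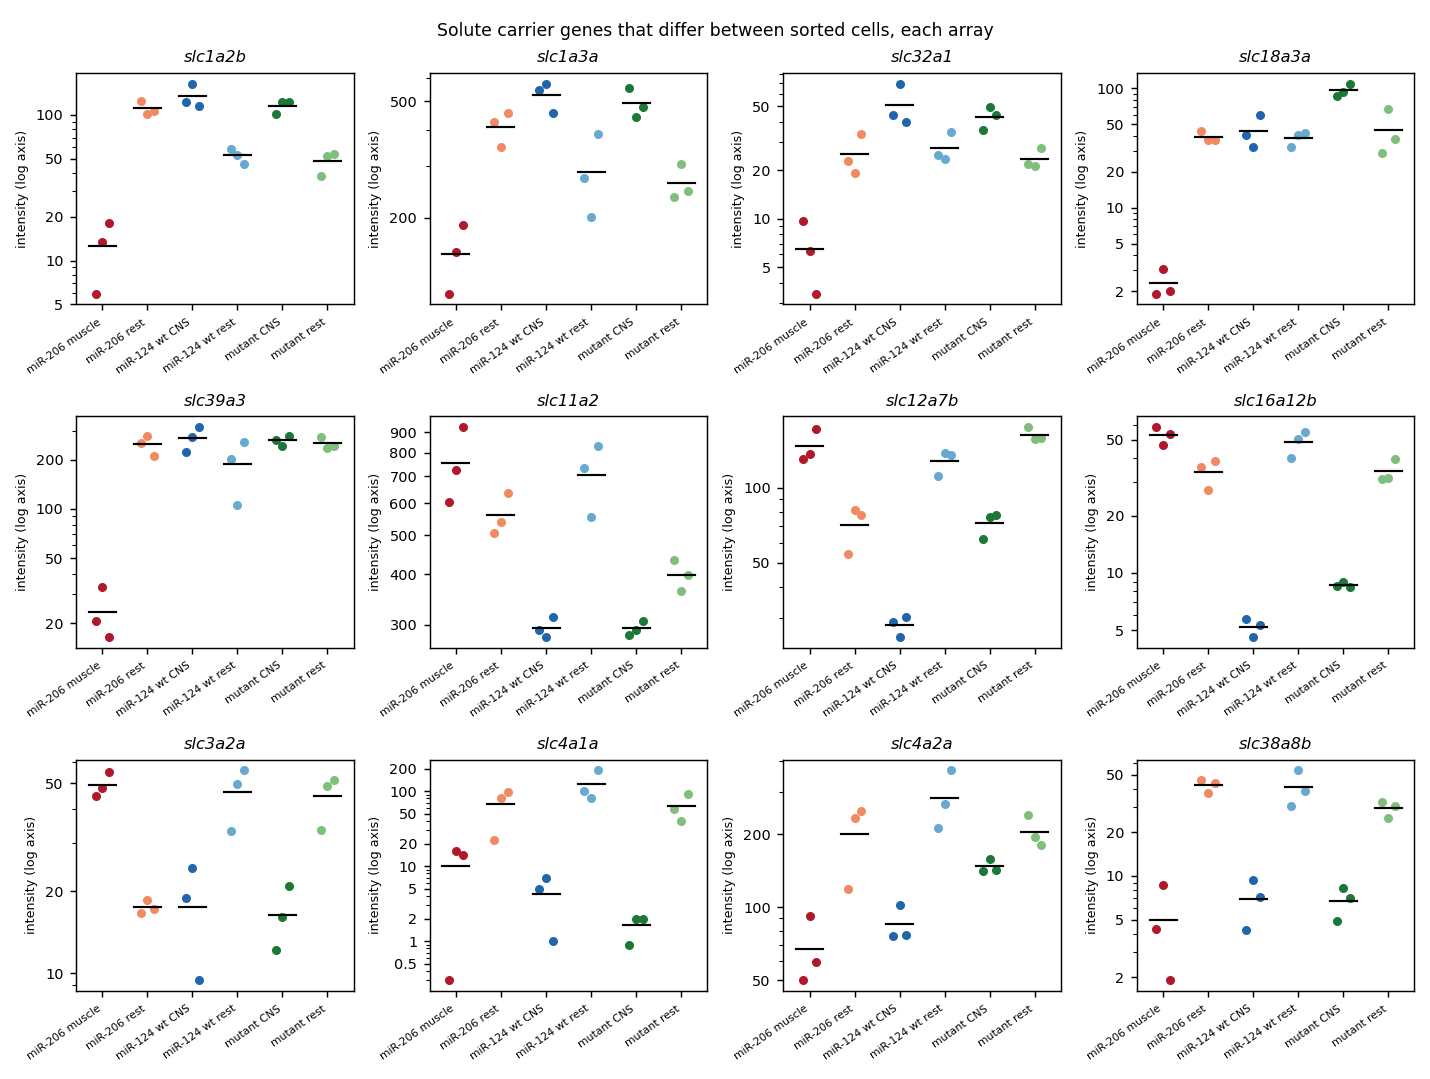
Intensity (log axis) of 12 solute carrier genes in the 6 sorted groups, each point an array and each bar a group mean (n = 3). The glutamate carriers slc1a2b and slc1a3a were lowest in muscle and higher in CNS than in the rests of the miR-124 lines, while slc12a7b, slc16a12b and slc3a2a were lower in CNS than in its rests.

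Among the amino acid carriers, 17 of 24 were tested, of which 1 rose and 5 fell in muscle (35.3% against 36.2% of all features) and 4 rose and 4 fell in wild-type CNS (47.1% against 32.8%). Of the 4 falls in CNS, 2 passed under all 3 scalings; those of slc7a8a and slc43a2a did not. The glutamate carriers were prominent in CNS. In mammals slc1a2 and slc1a3 are the glial carriers that clear glutamate from around synapses. Intensities of slc1a2b were 5.9, 13.5 and 18.1 in muscle and 125.5, 101.5 and 106.4 in the miR-206 rest. They were 123.7, 163.8 and 116.0 in wild-type CNS against 58.5, 53.4 and 46.2 in its rest, and 101.8, 123.2 and 123.3 in mutant CNS against 38.3, 52.4 and 53.7. In each line the GFP-positive and GFP-negative arrays kept apart, low in muscle and high in CNS. It fell by 2.18 in muscle (SE 0.17, adjusted p = 2.66e-09) and rose by 1.12 in wild-type CNS (SE 0.17, adjusted p = 2.95e-05) and by 1.05 in mutant CNS (SE 0.17, adjusted p = 0.000134).

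Intensities of slc1a3a were 110.3, 152.9 and 189.2 in muscle and 425.6, 347.6 and 454.4 in the miR-206 rest. They were 544.4, 572.5 and 454.9 in wild-type CNS and 274.4, 202.1 and 384.7 in its rest, with no overlap in either line. It fell by 1.37 in muscle (SE 0.20, adjusted p = 1.49e-05) and rose by 0.87 in wild-type CNS (SE 0.20, adjusted p = 0.00199) and by 0.87 in mutant CNS (SE 0.20, adjusted p = 0.00397). Both glutamate carriers moved with the CNS markers, whose sums were 105 to 247 in muscle, 5165 to 6573 in its rest, 9531 to 10495 in wild-type CNS and 2296 to 2793 in its rest; the part of those cells in these changes was not tested.

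Carriers of neutral and cationic amino acids went different ways. Sodium-coupled neutral amino acid carriers of the slc38 family include slc38a8b, whose arrays were 4.3, 8.6 and 1.9 in muscle against 46.4, 37.4 and 44.1, and 4.2, 9.4 and 7.2 in wild-type CNS against 30.7, 53.9 and 38.6. It was dim in every GFP-positive array and fell by 1.5 in muscle (SE 0.16, adjusted p = 2.72e-07), by 1.30 in wild-type CNS (SE 0.16, adjusted p = 2.52e-06) and by 1.00 in mutant CNS (SE 0.16, adjusted p = 0.000128). Another member, slc38a4, had arrays of 615.8, 551.1 and 481.6 in wild-type CNS against 322.2, 337.4 and 286.4 in its rest, with no overlap. It rose by 0.77 there (SE 0.20, adjusted p = 0.00549).

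The heavy chain that escorts amino acid carriers of the slc7 family to the cell surface has 2 genes on the array, slc3a2a and slc3a2b. Intensities of slc3a2a were 44.8, 48.1 and 54.9 in muscle against 16.7, 18.6 and 17.2 in its rest, and 18.9, 24.4 and 9.4 in wild-type CNS against 33.4, 49.8 and 55.8. The arrays did not overlap in either line, and the order of the fractions was opposite. It rose by 0.96 in muscle (SE 0.18, adjusted p = 0.00026) and fell by 0.90 in wild-type CNS (SE 0.18, adjusted p = 0.00057) and by 0.90 in mutant CNS (SE 0.18, adjusted p = 0.00113). Its 2 wild-type rests differed as well, lower by 0.88 in the miR-206 rest (adjusted p = 0.00508). For slc3a2b the changes were -0.51 in muscle (adjusted p = 0.0886), 0.40 in wild-type CNS (adjusted p = 0.196) and 0.00 in mutant CNS (adjusted p = 0.993), and none passed.

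A light chain for large neutral amino acids, slc7a8a, was 4.73 ± 3.95 (SD, n = 3) in muscle and 27.5 ± 5.58 in its rest and fell by 1.08 (SE 0.17, adjusted p = 2.45e-05), while its other probe set gave -0.39. The cationic amino acid carrier slc7a3a had arrays of 645.7, 1001.5 and 698.4 in wild-type CNS against 361.8, 336.5 and 489.2 in its rest. It rose by 0.95 there (SE 0.30, adjusted p = 0.0182), a call lost without CNS replicate 2 or rest replicate 1 or 2 (adjusted p up to 0.0947). In muscle it fell by 0.92 with overlapping arrays (SE 0.30, adjusted p = 0.0198), and without rest replicate 2 the change was -0.55; without muscle replicate 1 or 3 or rest replicate 2 the call was lost, with an adjusted p of up to 0.152.

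All 4 vesicular carriers were tested, of which 3 fell in muscle, where 36.2% of all features passed. In wild-type CNS, where 32.8% of all features passed, 1 rose and 1 fell. That fall, of slc17a5, was lost with centred arrays (adjusted p = 0.0995). The vesicular acetylcholine carrier slc18a3a, which loads transmitter into vesicles of cholinergic neurons, was at 1.9, 3.1 and 2.0 in muscle against 44.1, 36.9 and 36.8 in its rest. It was 40.7, 32.3 and 59.3 in wild-type CNS and 32.3, 40.4 and 41.9 in its rest, but 86.0, 92.8 and 109.2 in mutant CNS and 28.7, 67.2 and 37.8 in the mutant rest. The wild-type miR-124 fractions overlapped, and all mutant CNS arrays lay above every other array. It fell by 1.59 in muscle (SE 0.19, adjusted p = 1.29e-06), differed by 0.13 between CNS and rest in wild type (adjusted p = 0.663) and rose by 0.93 in mutant CNS (SE 0.19, adjusted p = 0.00151). The test of the difference between these sorts gave 0.80 (SE 0.27, adjusted p = 0.149) and did not pass.

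The vesicular carrier of GABA and glycine, slc32a1, was at 9.7, 6.3 and 3.4 in muscle against 22.7, 19.2 and 33.7, and at 43.9, 69.2 and 40 in wild-type CNS against 25, 23.4 and 34.5. The fractions did not overlap in either line. It fell by 0.87 in muscle (SE 0.18, adjusted p = 0.000638) and rose by 0.60 in wild-type CNS (SE 0.18, adjusted p = 0.0133), the latter lost without CNS replicate 2 or rest replicate 2 (adjusted p up to 0.101). In the mutant line its rise of 0.57 in CNS (SE 0.18, adjusted p = 0.0329) did not pass with the replicate number as a block (adjusted p = 0.0555), nor without CNS replicate 2 or 3 or rest replicate 1 or 2 (up to 0.15). The lysosomal sialic acid carrier slc17a5 was 73.1 ± 14.8 (SD, n = 3) in muscle against 136 ± 16.9 and fell by 0.78 (SE 0.14, adjusted p = 0.0002).

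Of 22 carriers of ions and acid-base equivalents, 11 were tested. In muscle 1 rose and 3 fell, where 36.2% of all features passed. In wild-type CNS 4 fell and none rose, where 32.8% of all features passed. Of these falls, 2 of 3 in muscle and 3 of 4 in CNS passed under all 3 scalings. The red cell anion exchanger slc4a1a, known as band 3, was at 0.3, 15.8 and 13.9 in muscle against 22.4, 82.2 and 96.8 in its rest. It was at 4.9, 6.9 and 1.0 in wild-type CNS against 100.7, 81.1 and 190.6, and at 0.9, 2.0 and 2.0 in mutant CNS against 58.6, 40.5 and 91.5. Every GFP-positive array lay below every GFP-negative one. It fell in all 3 sorts, the change being -1.59 in muscle (SE 0.35, adjusted p = 0.00102), -2.72 in wild-type CNS (SE 0.35, adjusted p = 3.18e-06) and -2.12 in mutant CNS (SE 0.35, adjusted p = 0.000129). The 8 red cell markers moved with it, their sums being 134 to 1162 in muscle against 3819 to 6874, 56.4 to 92.5 in wild-type CNS against 7938 to 8885, and 43.5 to 67.5 in mutant CNS against 2243 to 3986; the part of red cells in the change was not tested.

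A further anion exchanger, slc4a2a, was at 50, 92.0 and 59.6 in muscle against 119.5, 233.0 and 249.3, and at 76.4, 102.0 and 76.7 in wild-type CNS against 213.2, 267.8 and 368.3. These fractions did not overlap. It fell by 1.35 in muscle (SE 0.23, adjusted p = 0.000107) and by 1.54 in wild-type CNS (SE 0.23, adjusted p = 2.82e-05), but the other 2 probe sets of the gene gave 0.28 and -0.42 in muscle and -0.04 and -0.21 in CNS, so that the probe sets disagreed.

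The potassium-chloride cotransporter slc12a7b, of a family that lowers cell volume and chloride, was at 130.3, 136.2 and 172.1 in muscle against 54.0, 81.0 and 77.5 in its rest. It was at 29, 25.2 and 30.4 in wild-type CNS against 110.8, 137.8 and 134.3, and at 62.1, 76.0 and 77.9 in mutant CNS against 174.7, 155.7 and 158.0. Muscle arrays lay above their rest and CNS arrays below theirs. It rose by 0.91 in muscle (SE 0.15, adjusted p = 6.45e-05) and fell by 1.70 in wild-type CNS (SE 0.15, adjusted p = 3.15e-08) and by 1.03 in mutant CNS (SE 0.15, adjusted p = 3.78e-05). The Golgi sodium-proton exchanger slc9a7 fell by 0.60 in muscle and by 0.48 in wild-type CNS, and with centred arrays neither passed (adjusted p = 0.051 and 0.115).

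Of 14 metal carriers, 13 were tested, with 1 higher and 3 lower in muscle (30.8% against 36.2% of all features) and 4 lower and none higher in wild-type CNS (30.8% against 32.8%). Of these falls, 1 of 3 in muscle and 1 of 4 in CNS passed under all 3 scalings; with centred arrays slc30a7 and slc39a7 were lost in both sorts and slc31a1 in CNS. The zinc importer slc39a3 had the largest fall of any tested carrier in muscle. Its arrays were 20.6, 33.2 and 16.4 in muscle against 255.3, 280.5 and 211.5 in the miR-206 rest, and 224.9, 275.0 and 318.0 in wild-type CNS against 202.0, 105.3 and 257.4. The remaining groups were as high, with 263.0, 243.9 and 281.4 in mutant CNS and 277.7, 237.7 and 242.6 in the mutant rest. All 15 arrays other than muscle lay above 100. It fell by 2.76 in muscle (SE 0.22, adjusted p = 4.09e-09), while its difference of 0.57 in wild-type CNS had an adjusted p of 0.06.

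The divalent metal importer slc11a2, needed for iron supply to red cells in zebrafish, was at 290.1, 279.3 and 313.5 in wild-type CNS against 734.2, 553.7 and 830.3 in its rest. It fell by 1.2 (SE 0.16, adjusted p = 5.31e-06), with no overlap. The red cell sums given for slc4a1a were lower in wild-type CNS too, and the part of red cells was not tested. In muscle its arrays were 603.9, 727.3 and 927.7 against 507.3, 540.4 and 635.5, a difference of 0.40 with an adjusted p of 0.0563 (0.0186 with the replicate number as a block). There the red cell sums were lower, at 134 to 1162 against 3819 to 6874. In the mutant line slc11a2 was 283.0, 291.4 and 306.1 in CNS against 432.8, 364.0 and 398.3, a difference of -0.42 with an adjusted p of 0.0869 (0.0292 with that block). A zinc carrier, slc39a13, rose by 0.83 in muscle (SE 0.23, adjusted p = 0.00801), with arrays of 122.6, 146.6 and 119.5 against 38.9, 119.4 and 56.4. Without rest replicate 1 the rise was 0.55 (adjusted p = 0.0555). The endoplasmic reticulum zinc carrier slc39a7 fell by 0.55 in muscle (SE 0.14, adjusted p = 0.00316) from 941 ± 114 to 635 ± 61.2 (SD, n = 3), a call that ended with centred arrays (adjusted p = 0.0697).

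Only 6 of 14 sugar carriers were tested, and 2 rose and 2 fell in muscle, where 36.2% of all features passed. The facilitative sugar carrier slc2a3a, a relative of the neuronal glucose carrier of mammals, rose by 0.61 in muscle (SE 0.19, adjusted p = 0.0145), from arrays of 16.0, 30.7 and 23.9 to 40.8, 48.9 and 41.9. The call ended without rest replicate 1 or muscle replicate 2 (adjusted p up to 0.0717). The glucose-6-phosphate carrier of the endoplasmic reticulum, slc37a4b, rose by 0.64 (SE 0.15, adjusted p = 0.00156), from 65.0, 48.3 and 43.9 to 85.3, 81.2 and 105.1. Another facilitative carrier, slc2a10, was 37.6 ± 5.16 (SD, n = 3) in muscle against 76.7 ± 7.46 and 45.4 ± 8.61 in wild-type CNS against 84 ± 28.1. It fell by 0.79 in muscle (SE 0.17, adjusted p = 0.00112) and by 0.67 in CNS (SE 0.17, adjusted p = 0.00493).

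Of the 12 carboxylate, peptide and bile acid carriers, 8 were tested, with 2 higher and 1 lower in muscle and 2 lower in wild-type CNS. The shares of all features that passed were 36.2% in muscle and 32.8% in wild-type CNS. The monocarboxylate family member slc16a12b, a creatine carrier in mammals, was at 58.5, 46.9 and 53.8 in muscle against 36.1, 27.3 and 38.6. It was at 5.7, 4.6 and 5.3 in wild-type CNS against 40.2, 50.3 and 54.9, and at 8.5, 9.0 and 8.4 in mutant CNS against 31.3, 31.4 and 39.7. CNS arrays lay below 10 in both genotypes. It fell by 1.60 in wild-type CNS (SE 0.14, adjusted p = 1.88e-08) and by 1.02 in mutant CNS (SE 0.14, adjusted p = 1.26e-05). Its rise of 0.47 in muscle (SE 0.14, adjusted p = 0.0103) did not pass without rest replicate 2 (adjusted p = 0.065).

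Among 11 carriers of organic ions, vitamins, heme and fatty acids, 9 were tested. The fatty acid uptake protein slc27a2a rose by 0.82 in muscle (SE 0.19, adjusted p = 0.00211), from 7.4, 25.1 and 13.5 to 27.2, 38.6 and 50.6. An organic ion family member, slc22a31, fell by 1.02 in wild-type CNS (SE 0.21, adjusted p = 0.000745), from 174.1, 147.4 and 117.2 to 40.4, 66.4 and 90.4. The urea carrier slc14a2, the sole tested member of its family, was at 3.5, 14.0 and 4.8 in muscle against 17.1, 28.0 and 28.1, and at 5.5, 8.8 and 7.9 in wild-type CNS against 41.7, 32.1 and 46.6. It was low in both GFP-positive fractions and fell in both, with -0.80 in muscle (SE 0.17, adjusted p = 0.000977) and -1.26 in CNS (SE 0.17, adjusted p = 8.5e-06). All 8 genes of the nucleotide sugar class, grouped by family number, were tested. Of them 1 rose in muscle and none passed in wild-type CNS, against 36.2% and 32.8% of all features.

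**Figure D2:**
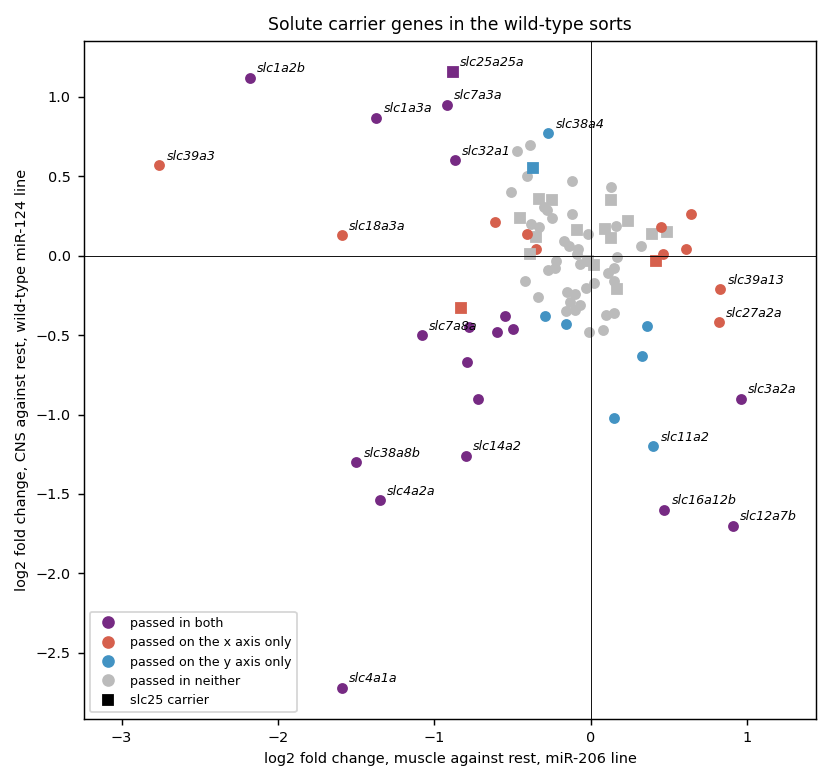
Change of each tested carrier in muscle against its rest (horizontal axis) and in wild-type CNS against its rest (vertical axis), in log2(intensity + 16), with squares for slc25 genes and colours for the calls. The glutamate carriers slc1a2b and slc1a3a lie at the upper left, slc12a7b and slc16a12b at the lower right, and slc4a1a, slc4a2a and slc38a8b at the lower left.

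The muscle and wild-type CNS sorts share no arrays. There were 11 carriers lower in both, of 22 lower in muscle and 20 lower in CNS, which is 11.5% of the tested carriers against 7.39% of all features; they were slc14a2, slc17a5, slc22a7b.1, slc2a10, slc30a7, slc38a8b, slc39a7, slc4a1a, slc4a2a, slc7a8a and slc9a7. With centred arrays 5 remained (slc14a2, slc2a10, slc38a8b, slc4a1a and slc4a2a), 5.21% against 5.56% of features, and with quantile normalization 9, 9.38% against 6.34%, so that the larger share among carriers rested on the scaling. A further 5 were lower in muscle and higher in CNS (slc1a2b, slc1a3a, slc25a25a, slc32a1 and slc7a3a), 5.21% against 7.43% of features. The opposite pattern was held by 3 (slc12a7b, slc16a12b and slc3a2a), 3.12% against 4.75%. None was higher in both, against 0.314% of features. Several marker lists also fell in both sorts. All red cell, epidermal and myeloid markers did, as did the sole tested ionocyte marker. Of 4 notochord markers, 4 fell in muscle and 3 in wild-type CNS. Yolk and endoderm, pronephros, and neural crest and pigment lists fell only in part. Muscle, CNS and presomitic lists did not fall in both. Epidermal sums were 351 to 985 in muscle against 6730 to 7777, and 833 to 1552 in wild-type CNS against 6470 to 8661. The part of any of these cells was not tested.

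Between the wild-type and the mutant CNS sorts, which share no arrays either, 3 carriers rose in both (slc1a2b, slc1a3a and slc32a1) and 5 fell in both (slc12a7b, slc16a12b, slc38a8b, slc3a2a and slc4a1a). These are 3.12% and 5.21% of the tested carriers, against 4.85% and 8.14% of features. None changed in opposite directions, and few features did (0.0105% higher in wild type and lower in the mutant, 0.0524% the reverse). Past the threshold in the mutant sort alone were slc18a3a, described above, the facilitative sugar carrier slc2a11b at 0.75 (SE 0.22, adjusted p = 0.0198) and slc35f2 at 0.69 (SE 0.18, adjusted p = 0.0117). The slc2a11b arrays were 26, 22.5 and 46.1 in mutant CNS against 11.4, 11.4 and 11.9, and the call ended without CNS replicate 3 or any 1 rest array (adjusted p up to 0.147). That of slc35f2 ended without CNS replicate 1 or rest replicate 1 (up to 0.107). The interactions were 0.55 (adjusted p = 0.476) and 0.22 (adjusted p = 0.792), so that neither difference between the sorts passed.

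Set directly against each other, muscle and wild-type CNS cells differed in 37 carriers, 11 higher and 26 lower in muscle, 38.5% against 44.4% of all features. Centring gave 17 higher and 19 lower, and quantile normalization 15 and 20. These arrays are those of the sorts above, so the values are given beside them and are not further support. The difference was -2.88 for slc39a3 (adjusted p = 1.58e-09), -2.41 for slc1a2b (adjusted p = 3.85e-10) and -1.56 for slc32a1 (adjusted p = 4.88e-07). It was 1.87 for slc12a7b (adjusted p = 2.73e-09), 1.70 for slc16a12b (adjusted p = 2.57e-09) and 1.29 for slc11a2 (adjusted p = 1.22e-06). The heavy chain pair was split here, with slc3a2a higher by 0.98 in muscle (adjusted p = 0.000164) and slc3a2b lower by 0.93 (SE 0.23, adjusted p = 0.00243). The vesicular nucleotide carrier slc17a9b was higher by 0.84 in muscle (SE 0.22, adjusted p = 0.0047), while its other probe set gave -0.01.

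The 2 wild-type rest fractions differed in 4 carriers, 4.17% against 6.13% of features (2.23% higher and 3.9% lower in the miR-206 rest), with 2 in each direction. Besides slc3a2a, the potassium-chloride cotransporter slc12a7b was lower by 0.74 in the miR-206 rest (adjusted p = 0.00481), and slc1a2b was higher by 0.89 (adjusted p = 0.00294). The fourth, slc37a4b, was higher by 0.55 (adjusted p = 0.0287), lost without miR-206 rest replicate 1 or miR-124 rest replicate 1 or 2 (up to 0.141). The muscle and CNS marker sums of these rests, given above, differed too, and their part was not tested.

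**Figure D3:**
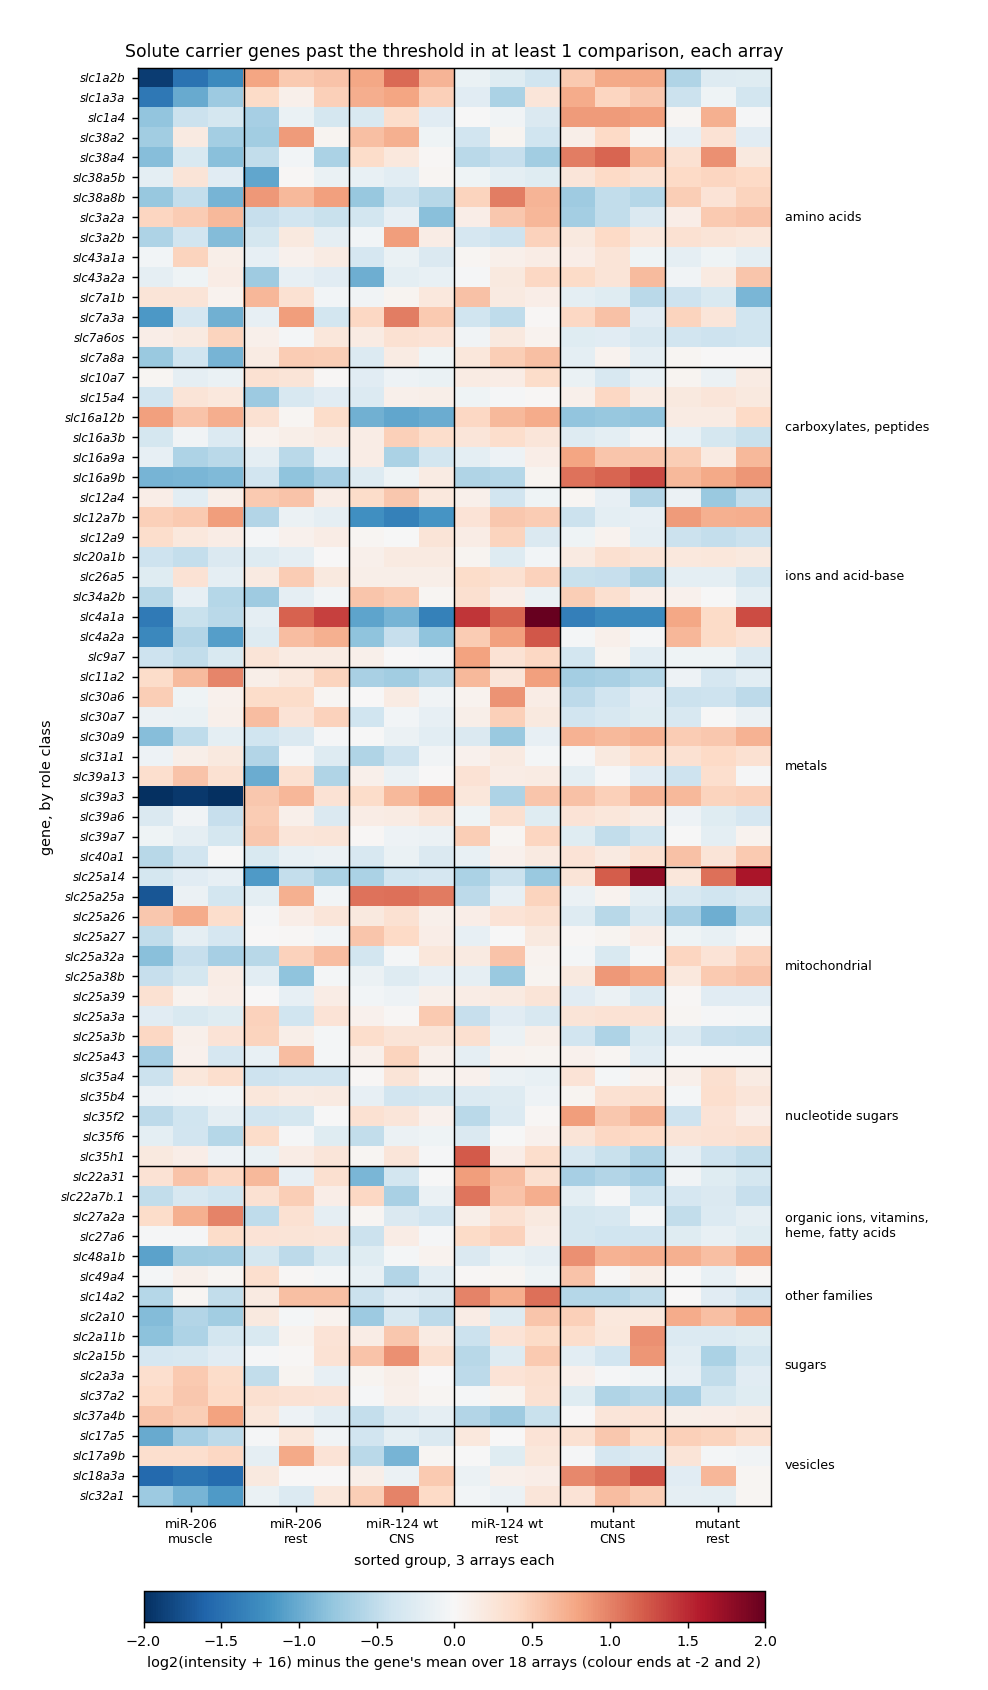
Level of the 72 carriers that passed in at least 1 comparison (rows) on the 18 arrays (columns, by group), as log2(intensity + 16) minus the mean of the gene over all arrays, with colours ending at -2 and 2. Muscle arrays are lowest for slc39a3 and slc1a2b, and mutant arrays of both fractions are highest for slc16a9b and slc25a14.

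Of the 19 tested slc25 carriers of mitochondria, 1 rose and 2 fell in muscle (15.8% against 36.2% of all features), beside 9 and 20 of the 77 other carriers. With the replicate number as a block, and the numbers of the miR-206 line did pair its fractions, 3 rose and 5 fell (42.1% against 40.5%); slc25a14 and slc25a16 rose and slc25a10b, slc25a43 and slc25a55a fell in addition. In wild-type CNS 2 rose and none fell (10.5% against 32.8%), beside 5 and 20 others, and in mutant CNS none passed, against 15.5% of features. Whether slc25 and the other families differ was not tested. The calcium-dependent ATP-magnesium and phosphate carrier slc25a25a was at 1425.2, 1429.3 and 1377.9 in wild-type CNS against 456.6, 590.4 and 899.8 in its rest. In the mutant line it was at 606.3, 690.6 and 581.1 in CNS and 525.2, 498.1 and 527.0 in the rest, and in muscle at 190.9, 610.3 and 508.6 against 574.3, 1090.2 and 631.8. Wild-type CNS thus lay above every other array and the muscle fractions overlapped. It rose by 1.16 in wild-type CNS (SE 0.30, adjusted p = 0.00564). The fall of 0.88 in muscle (SE 0.30, adjusted p = 0.0282) was -0.39 without muscle replicate 1 (adjusted p = 0.239), and it ended without rest replicate 2 and with centred arrays (adjusted p = 0.0561).

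The S-adenosylmethionine carrier slc25a26 rose by 0.42 in muscle (SE 0.15, adjusted p = 0.0282), with 176.1, 204.6 and 151.6 against 114.4, 128.6 and 140.1 and no overlap. Without muscle replicate 1 or 2 or rest replicate 1 or 2 it did not pass (adjusted p up to 0.135). The folate and FAD carrier slc25a32a fell by 0.83 in muscle with overlapping arrays (SE 0.24, adjusted p = 0.00875). The mitochondrial phosphate carrier, which feeds ATP synthesis, has 2 genes here. The change of slc25a3a in wild-type CNS was a rise of 0.55 (SE 0.18, adjusted p = 0.0231) at levels of 17.4, 16.1 and 29.1 against 6.9, 10.8 and 9.1, lost without CNS replicate 3 or rest replicate 1 (up to 0.134). Its partner slc25a3b did not pass in any sort. In the uncoupling protein family, slc25a27 was lower by 0.70 in muscle than in wild-type CNS, at 32.6 ± 5.25 against 63.2 ± 11.3 (SD, n = 3).

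**Figure D4:**
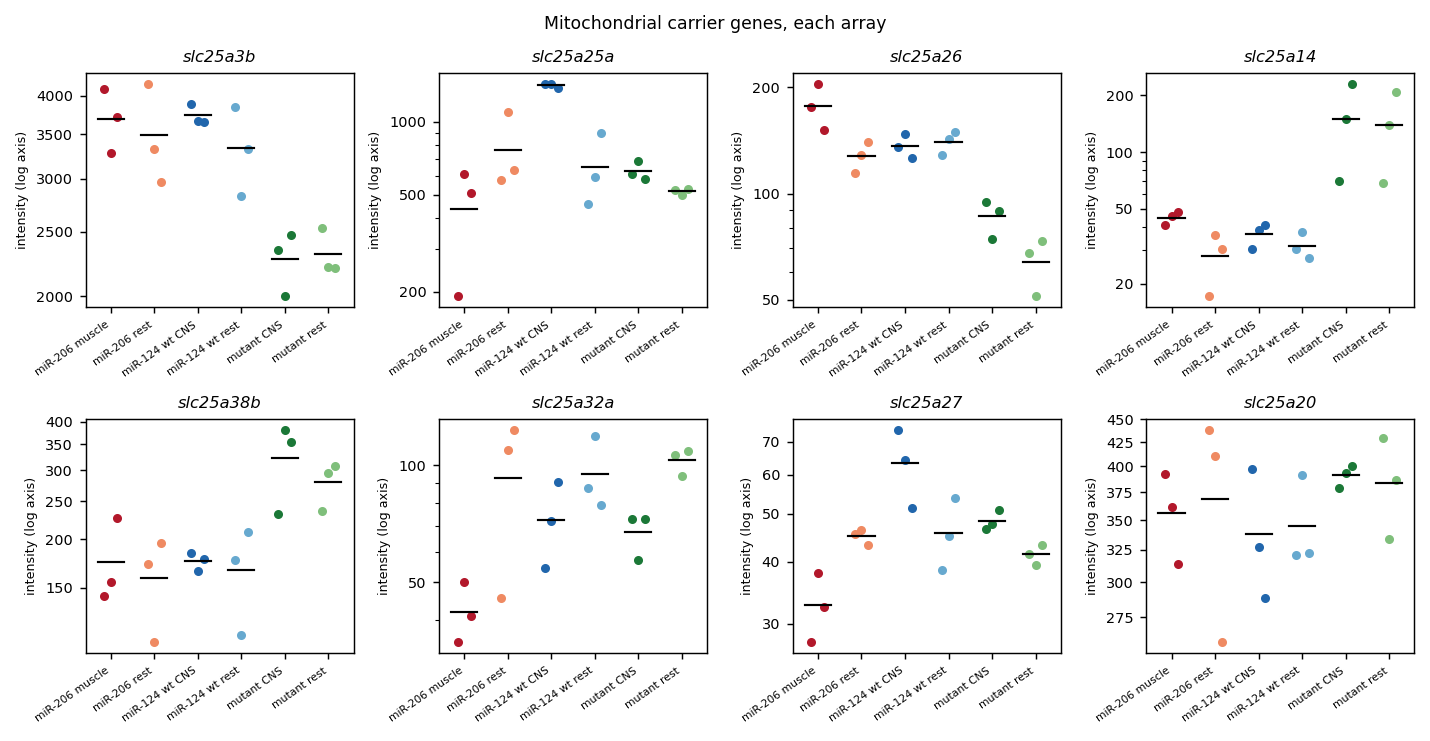
Intensity (log axis) of 8 slc25 genes in the 6 groups, each point an array and each bar a group mean (n = 3). In slc25a25a wild-type CNS stands above the other groups, in slc25a14 and slc25a38b both mutant fractions are high, and in slc25a3b and slc25a26 both are low.

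Mutant and wild-type CNS cells differed in 29 carriers, 20 higher and 9 lower in the mutant, 30.2% against 34.7% of all features (19.3% higher and 15.4% lower). In the GFP-negative cells 33 differed, 12 higher and 21 lower, 34.4% against 34.9%. The fractions share no arrays, but mutant arrays of the same number deviated together across them (correlations of residuals 0.104, 0.275 and 0.297). Calls shared by both fractions are therefore not independent support. In both, 10 carriers were higher in the mutant, out of 20 in CNS and 12 in the rest, and 7 were lower, out of 9 and 21. These are 10.4% and 7.29% of tested carriers against 11.4% and 9.45% of features. None went opposite ways, and few features did (0.419% higher in CNS and lower in the rest, 0.0105% the reverse). Among the 19 tested slc25 genes 2 were higher and 3 lower in each fraction, where 34.7% and 34.9% of all features passed. Epidermal markers moved with the CNS comparison, 7 of 9 being higher in mutant CNS (sums 3604 to 6130 against 833 to 1552). There 2 of 3 neural crest and pigment markers were higher as well, and 3 of 12 CNS and 2 of 4 notochord markers lower. In the rest the 4 myeloid markers were lower in the mutant (250 to 335 against 1483 to 2475), as were 3 of 8 red cell markers (2243 to 3986 against 7938 to 8885). Lower there too were 4 of 9 epidermal markers and the sole tested ionocyte marker. Of the presomitic markers 2 of 6 were higher in the mutant rest, and of 3 pronephros markers 2 were higher and 1 lower. Every other marker list had at most 1 marker that passed in a given direction. The part of these cells in the carrier changes was not tested.

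**Figure D5:**
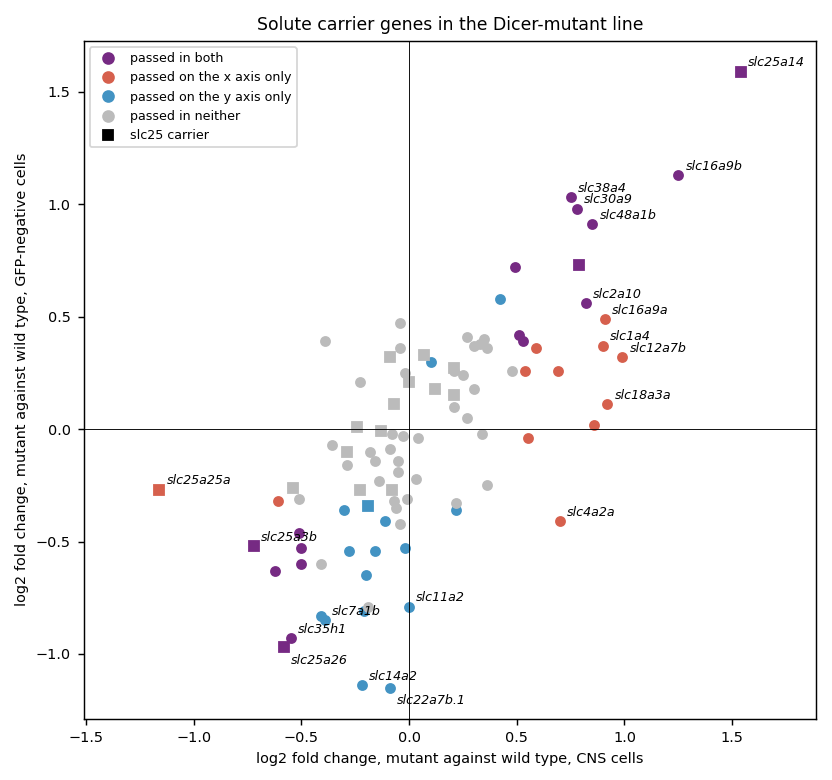
Change of each tested carrier between mutant and wild type in CNS cells (horizontal axis) and in GFP-negative cells (vertical axis), in log2(intensity + 16), with squares for slc25 genes and colours for the calls. The genes slc25a14, slc16a9b, slc30a9 and slc48a1b lie at the upper right and slc25a26, slc25a3b and slc26a5 at the lower left.

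Of the carriers higher in both mutant fractions, the monocarboxylate family member slc16a9b, a carnitine carrier in humans, was at 886.7, 931.4 and 1042.0 in mutant CNS against 340.3, 384.0 and 459.0 in wild type. In the rest it was at 645.2, 703.7 and 769.1 against 263.1, 270.3 and 426.7, with no overlap in either. It rose by 1.25 in CNS (SE 0.17, adjusted p = 1.47e-05) and by 1.13 in the rest (SE 0.17, adjusted p = 5.39e-05). Its paralog slc16a9a passed in CNS alone. It had arrays of 31.8, 24.6 and 24.6 in mutant CNS against 14.8, 1.9 and 5.5, and rose by 0.91 (SE 0.19, adjusted p = 0.00116). In the rest its change of 0.49 did not pass (adjusted p = 0.0543, or 0.0261 with the replicate block).

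The heme carrier slc48a1b was at 151.8, 127.9 and 130.9 in mutant CNS against 59.4, 70.0 and 77.1, and at 129.6, 118.6 and 139.3 in the mutant rest against 56.4, 64.7 and 62.0. All mutant arrays exceeded all wild-type ones. It rose by 0.85 (SE 0.14, adjusted p = 0.00012) and by 0.91 (SE 0.14, adjusted p = 8.63e-05). The zinc carrier slc30a9, mitochondrial in mammals, rose by 0.78 in CNS (SE 0.17, adjusted p = 0.00142), from 162 ± 12.5 to 290 ± 5.76 (SD, n = 3), and by 0.98 in the rest (SE 0.17, adjusted p = 0.000262); its other 2 probe sets gave 0.32 and -0.46 in CNS and 0.15 and -0.23 in the rest. The iron exporter slc40a1, or ferroportin, rose by 0.51 in CNS (SE 0.15, adjusted p = 0.0136) and by 0.42 in the rest, and neither passed with quantile normalization (adjusted p = 0.0503 and 0.0562); without wild-type CNS replicate 1 the former had an adjusted p of 0.051.

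The neutral amino acid carrier slc38a4 was at 976.2, 1083.2 and 755.3 in mutant CNS against 615.8, 551.1 and 481.6, and at 589.3, 902.7 and 542.4 in the mutant rest against 322.2, 337.4 and 286.4. The genotypes did not overlap in either fraction, and it rose by 0.75 (SE 0.20, adjusted p = 0.00726) and by 1.03 (SE 0.20, adjusted p = 0.000692). The sugar carrier slc2a10 rose by 0.82 in CNS (SE 0.17, adjusted p = 0.0012) and by 0.56 in the rest (SE 0.17, adjusted p = 0.0181). In the rest its value was 0.35 without wild-type replicate 2, and the call ended without that array or mutant replicate 3 (adjusted p up to 0.118). The glucose-6-phosphate carrier slc37a4b rose by 0.72 in the rest (SE 0.15, adjusted p = 0.00108), from 30.2, 26.3 and 35.1 to 58.9, 60.3 and 61.4. Its rise in CNS was 0.49 (SE 0.15, adjusted p = 0.0141), a call lost with centred arrays (adjusted p = 0.0542) and with quantile normalization (0.078).

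In all, 10 carriers were higher in mutant CNS and did not pass in the rest. Among them were the neutral amino acid carrier slc1a4, at 175.4, 174.5 and 171.0 against 69.4, 119.1 and 74.3 and up by 0.90 (SE 0.20, adjusted p = 0.00201), and slc12a7b, up by 0.99 (SE 0.15, adjusted p = 5.9e-05). The vesicular carrier slc18a3a rose by 0.92 (SE 0.19, adjusted p = 0.00114). The large neutral amino acid carrier slc43a2a rose by 0.86 (SE 0.22, adjusted p = 0.00441), from 43.8 ± 17.3 to 90 ± 14 (SD, n = 3), and slc17a5 by 0.69 (SE 0.14, adjusted p = 0.000993). The difference of these changes between the fractions did not pass, at 0.53 for slc1a4 (adjusted p = 0.453), 0.67 for slc12a7b (adjusted p = 0.117), 0.80 for slc18a3a (adjusted p = 0.149), 0.84 for slc43a2a (adjusted p = 0.189, or 0.0432 with the replicate block) and 0.44 for slc17a5 (adjusted p = 0.349). Also among the 10, slc4a2a rose by 0.70 (SE 0.23, adjusted p = 0.0258), lost with quantile normalization (0.0664), and its other probe sets gave -0.18 and -0.01. The copper carrier family member slc31a1 rose by 0.54 (SE 0.16, adjusted p = 0.0119), and its other probe set gave -0.15.

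Of the carriers lower in both mutant fractions, slc26a5, the prestin of mammalian outer hair cells, was at 45.9, 45.1 and 39.7 in mutant CNS against 75.8, 75.4 and 75.7. It was at 57.9, 57.5 and 49.6 in the mutant rest against 92.4, 88.3 and 100.4. No arrays overlapped, and it fell by 0.62 (SE 0.14, adjusted p = 0.00248) and by 0.63. The sugar phosphate carrier slc37a2 fell by 0.50 in CNS (SE 0.14, adjusted p = 0.0093), lost without mutant CNS replicate 2 (adjusted p = 0.0506). The fall of slc35h1 by 0.55 in CNS (SE 0.21, adjusted p = 0.0476) was lost without any 1 of the 6 arrays (up to 0.147), and that of 0.93 in the rest (SE 0.21, adjusted p = 0.00217) was -0.60 without wild-type rest replicate 1. The gene slc7a6os, not itself a carrier, fell by 0.51 in CNS (SE 0.12, adjusted p = 0.00217). Lower in CNS alone was the potassium-chloride cotransporter slc12a4, which did not pass in the rest. It fell by 0.61 in CNS (SE 0.19, adjusted p = 0.0198), lost without wild-type replicate 1 or 2 or mutant replicate 3 (up to 0.123).

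The falls in the GFP-negative cells were led by the organic anion carrier slc22a7b.1, at 11.3, 12 and 9 in the mutant against 55.9, 34.7 and 40.7, which fell by 1.15 (SE 0.20, adjusted p = 0.00033). The urea carrier slc14a2 was at 13.2, 8.9 and 6.2 against 41.7, 32.1 and 46.6 and fell by 1.14 (SE 0.17, adjusted p = 7.73e-05). All mutant arrays of both genes lay below all wild-type ones. The metal importer slc11a2 fell by 0.79 (SE 0.16, adjusted p = 0.000962), and the part of red cells, whose sums are given above, was not tested. The cationic amino acid carrier slc7a1b fell by 0.85 (SE 0.19, adjusted p = 0.0023), the Golgi zinc carrier slc30a6 by 0.83 (SE 0.19, adjusted p = 0.00276) and slc22a31 by 0.81 (SE 0.21, adjusted p = 0.00614). The glutamine carrier slc38a5b rose by 0.58 (SE 0.20, adjusted p = 0.0285), lost without 5 of the 6 arrays in turn (up to 0.0717).

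Of the mitochondrial carriers, slc25a14, of the uncoupling protein family, was at 70.1, 150.8 and 230.4 in mutant CNS against 30.4, 38.7 and 41.2. In the mutant rest it was at 68.2, 140.0 and 207.4 against 30.4, 37.5 and 27.2. The mutant arrays ranged from 68.2 to 230.4, all above the wild-type ones, and arrays of the same number had close values in both fractions. It rose by 1.54 (SE 0.31, adjusted p = 0.000868) and by 1.59 (SE 0.31, adjusted p = 0.000751), a further probe set gave 1.54 and 1.68, and a dim one 0.27 and 0.17. In muscle its difference of 0.49 from the rest did not pass (adjusted p = 0.237), but did with the replicate block (0.0121). The carrier slc25a38b, which brings glycine into mitochondria for heme synthesis, was at 232.1, 381.6 and 354.3 in mutant CNS against 184.7, 165.9 and 177.5. It rose by 0.79 (SE 0.23, adjusted p = 0.0114) and in the rest by 0.73 (SE 0.23, adjusted p = 0.0189). The first call ended without mutant CNS replicate 2 (adjusted p = 0.0626) and the second without wild-type replicate 2 or mutant replicate 2 or 3 (up to 0.115).

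The phosphate carrier slc25a3b was at 2346.7, 1997.3 and 2472.4 in mutant CNS against 3893.6, 3668.3 and 3648.4, and at 2527.7, 2209.3 and 2203.0 in the mutant rest against 3843.7, 2829.8 and 3328.6. All mutant arrays lay below all wild-type arrays, and it fell by 0.72 (SE 0.14, adjusted p = 0.000441) and by 0.52 (SE 0.14, adjusted p = 0.0064). Its paralog slc25a3a passed in neither comparison. The S-adenosylmethionine carrier slc25a26 was at 94.8, 74.2 and 89.3 against 135.5, 147.5 and 126.3 in CNS and at 67.7, 51.1 and 73.2 against 128.3, 142.8 and 149.3 in the rest. It fell by 0.58 (SE 0.15, adjusted p = 0.00452) and by 0.97 (SE 0.15, adjusted p = 7.22e-05). In CNS cells slc25a25a fell by 1.16 (SE 0.30, adjusted p = 0.0062), from the values given above. In the rest the glutathione carrier slc25a39 fell by 0.34 (SE 0.13, adjusted p = 0.0463), lost without 5 of 6 arrays in turn (up to 0.146), and its other probe set gave 0.38.

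Whether the CNS sort differed between genotypes was tested as an interaction, and 1 carrier passed, 1.04% against 2.58% of features (2.27% higher and 0.304% lower). The urea carrier slc14a2 gave 0.92 (SE 0.24, adjusted p = 0.0486). Its CNS arrays were dim in both genotypes, at 5.5, 8.8 and 7.9 in wild type and 3.7, 3.6 and 4.8 in the mutant, and the rests were those printed above. The call ended under most alternatives. Those nearest the threshold were slc22a7b.1 at 1.06 (SE 0.29, adjusted p = 0.0549), slc11a2 at 0.78 (SE 0.22, adjusted p = 0.0766) and slc4a2a at 1.11 (SE 0.33, adjusted p = 0.0908). With the replicate block these passed, with adjusted p of 0.0107, 0.0222 and 0.0262, as did slc43a2a, although the numbers paired the fractions in the mutant line and not in the wild-type line. The slc4a2a value is that of its brightest probe set, which changed by -1.54 in wild-type CNS and -0.43 in mutant CNS. Its other 2 probe sets gave -0.04 and -0.21 in wild-type CNS and 0.12 and -0.11 in mutant CNS. Some marker lists of other cells also had a positive interaction. It passed for all 4 myeloid markers (median 2.13) and 6 of 9 epidermal markers (median 1.99). It also passed for 2 of 3 neural crest and pigment markers (median 1.44) and the sole tested ionocyte marker (1.37). None of the red cell (median 0.74), yolk and endoderm (0.54), muscle (0.23) or notochord (0.02) markers passed. The presomitic (-0.56) and pronephros (-0.49) medians had the opposite sign, and none of their markers passed. For the CNS markers the median was -0.51, and 1 of 12 passed, with a negative value. Myeloid sums were 22 to 46.5 in wild-type CNS against 1483 to 2475 in its rest and 25.7 to 34.2 in mutant CNS against 250 to 335; the part of these cells was not tested. For slc25a25a the value was -0.89 (SE 0.43, adjusted p = 0.372).

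Genes of related function without an slc name were listed as well. Of 9 tested subunits of the sodium pump, whose gradient drives many carriers, 1 rose and 5 fell in muscle (66.7% against 36.2% of all features) and 3 rose and 3 fell in wild-type CNS (66.7% against 32.8%). The subunit gene atp1a1a.4 fell in both, with -2.2 in muscle (SE 0.30, adjusted p = 5.63e-06) and -2.49 in wild-type CNS (adjusted p = 1.47e-06). The subunit gene atp1b2a rose by 0.97 in wild-type CNS (adjusted p = 0.000142), and atp1b3b rose by 0.94 in muscle (SE 0.16, adjusted p = 9.18e-05). Of the 5 proton pump subunits tested, 3 fell in muscle (60%) and none passed in wild-type CNS. In the mitochondrial carrier family outside slc25 names, ucp2 fell by 1.18 in wild-type CNS (SE 0.23, adjusted p = 0.000378), and mtch2 rose by 1.06 in mutant CNS (SE 0.13, adjusted p = 6.1e-06) and by 0.66 in the mutant rest (adjusted p = 0.000746).

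Of the 96 tested carriers, 24 passed in none of the 8 comparisons. The share of all features that passed in none was not counted, so this number is not read as a trait of the carriers. The 24 included the mitochondrial carriers slc25a10b, slc25a11, slc25a12, slc25a16, slc25a1a, slc25a20, slc25a33, slc25a44a and slc25a55a, the monocarboxylate carrier slc16a1b, the folate carrier slc46a1 and the bicarbonate cotransporter slc4a4b. With the replicate block slc25a10b, slc25a16 and slc25a55a passed in muscle, as given above. That block also brought slc25a12 past the threshold in wild-type CNS against its rest (adjusted p = 0.044). It did the same for slc25a10b in muscle against CNS (0.0285) and for slc25a55a in mutant against wild-type CNS (0.0489). The 38 carriers too dim to test were 11 ion, 8 sugar, 7 amino acid, 5 mitochondrial, 4 carboxylate or peptide, 2 vitamin and 1 metal carrier. Among these, with no array above 42.5, were the glucose carrier slc2a2, the peptide carrier slc15a1b and the dopamine carrier slc6a3.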

How the data were processed

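The authors deposited linear intensity values, 1 per probe set and array, and the submitters' processing notes name MAS5; its version, its scaling target and detection calls are not given here. Each array had been scaled to a 2% trimmed mean of 150.0. Of 15617 probe sets, 115 controls were left out, 10795 had 1 gene symbol, 135 several and 4572 none. The slc members and all lists were chosen with earlier results of these data known; 3 further genes matching the symbol rule are not reported here.

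The log2 of the deposited intensity plus 16 was fitted. A probe set stayed if above the 40th percentile of its array on at least 3 arrays (10704 kept), and the brightest stood for its gene (9548 features). limma 3.58.1 in R 4.3.3 fitted 1 mean per group to 18 arrays (12 residual degrees of freedom, moderation with an intensity trend), and two-sided p-values were adjusted by Benjamini-Hochberg within each of 8 comparisons at 0.05. The number of arrays limits the precision; 3 arrays against 3 allow no exact permutation p under 0.1, so none is given. Python 3.11.15, pandas 2.3.3, numpy 2.4.6 and matplotlib 3.10.9 handled tables and figures, and the fit was tested on simulated data.

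Carriers to be named were the 8 largest rises and falls of each comparison that passed without overlap of the groups. The interaction had no overlap rule. Also planned were the 4 largest of slc25, the 3 brightest of each role class, and paralog pairs with a change in a sort. Not all genes under these rules are described, slc20a1b being 1 of those left out. Others were named after their values were seen. Replicate numbers of the 2 fractions deviated together in the miR-206 line (correlations of residuals 0.367, 0.372 and 0.203) and in the mutant line (0.104, 0.275 and 0.297), not in the wild-type miR-124 line (0.181, 0.00284 and -0.0859); the labels do not say what a number marks, and the block by number was an alternative. Pseudocounts, filters, scalings, array weights, a fit without trend, the mean of probe sets and leaving out each array were the others.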

Additional observations from a re-analysis of the deposited data

Results flagged for a closer look

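For the urea carrier slc14a2 the interaction of sort and genotype was 0.92 on the log2 scale (SE 0.24, adjusted p = 0.0486 in limma's test over all features). This narrow call was lost with centred arrays (adjusted p = 0.0561) and with quantile normalization (0.0586). The CNS arrays were dim in both genotypes, with means of 7.4 in wild type and 4.03 in the mutant. They differed by -0.22 (adjusted p = 0.336), so the value came mostly from the rests. The sort gave -1.26 in wild type, with all 3 CNS arrays below all 3 rest arrays. Some marker lists of other cells also had positive interactions. Medians were 2.13 for 4 of 4 myeloid markers that passed and 1.99 for the epidermal list, of which 6 of 9 passed. They were 1.44 for neural crest and pigment, of which 2 of 3 passed, and 1.37 for the 1 ionocyte marker. None of the red cell (0.74), yolk and endoderm (0.54), muscle (0.23) or notochord (0.02) markers passed. The presomitic (-0.56) and pronephros (-0.49) medians had the opposite sign, and none of their markers passed. For the CNS markers the median was -0.51, and 1 of 12 passed, with a negative value. The part of these cells was not tested. Groups of 3 arrays are too small to look for single arrays that stand apart.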

How the results depend on the processing

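Counts of carriers in this section stand without the shares of all features under the same settings and are not read as a trait of the carriers. The number of carriers that passed moved by over 1.5 times in 3 comparisons. In muscle against its rest it was 32, and 21 with the stricter filter at the 60th percentile, which tests fewer genes. In mutant CNS against its rest it was 11, with 5 under the stricter filter and 22 with array weights; for the array weights the cause was not tested. For the interaction it was 1, with 0 at a pseudocount of 1, without a filter, with the stricter filter, and with centred or quantile-normalized arrays or the mean of probe sets, 2 at a pseudocount of 64, 4 with array weights and 5 with the replicate block; without 1 array in turn it was 0 to 3, and the cause was not tested. With the replicate block the other counts were 40, 34, 14, 33, 36, 41 and 5 against 32, 27, 11, 29, 33, 37 and 4, and among the named calls only that of slc32a1 in mutant CNS was lost; gained were slc39a3 in wild-type CNS (adjusted p = 0.0235), slc11a2 and slc25a14 in muscle, slc11a2 in mutant CNS and the interactions of slc11a2 (0.0222), slc22a7b.1 (0.0107), slc4a2a (0.0262) and slc43a2a (0.0432), among others. The interaction of slc14a2 had an adjusted p of 0.367 at a pseudocount of 1, 0.0535 without a filter, 0.0561 centred, 0.0586 quantile-normalized, 0.0514 for the mean of probe sets, 0.0379 with the block and up to 0.142 without 1 array, lost in 10 of 12 cases. Centring moved the median of all features from -0.06 to 0.06 for muscle against CNS, and in the rests compared with each other quantile normalization gave 4 carriers higher and 2 lower against 2 and 2. The 101 named values checked under these settings were only those of the largest rises and falls, overall and of slc25. None of the 101 reversed under any setting run. At a pseudocount of 64, 55 shrank by over 1.5 times, and 25 grew by as much at a pseudocount of 1. Without 1 array 21 lost their call. Without detection calls, values in the lowest part of the scale cannot be told from background.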
